A study of Mus musculus with 11 samples.

Results

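The promoters described here are those of the genes whose symbols begin with Eif or Eef, the eukaryotic translation initiation and elongation factors. Membership was set by symbol, and 66 of the 21881 promoter windows in the deposited table met the rule. Of these, 57 had an Eif symbol and 9 an Eef symbol. The group itself was chosen with earlier results of these data known, so its values are a description. For each window of 1000 bp the table gives the number of reads from chromatin immunoprecipitation (ChIP) of HA-tagged ST18 and the number from input, which is genomic DNA sequenced without immunoprecipitation. ST18, a zinc finger protein related to MYT1, is described by the study as a transcriptional repressor in the early cortex. Of the 11 mouse samples, 2 were ST18 ChIP libraries and 1 was the input, all from cells that the labels name TN and describe as brain cells in an in vitro ChIP experiment. The RNA libraries, 4 with ST18 knockdown and 4 controls, were not used here.

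The table holds 1 ST18 column for the 2 ChIP samples and 1 input column, so no value below has a replicate. Whether the ST18 column pools both ChIP samples is not given in the sources used here, and neither is the place of a window relative to its gene. The protocol text filed with the ChIP samples is that of the electroporated embryos, so the age, strain and treatment of the TN cells, and the construct that carried the tag, are equally unknown from these labels. Although 1 label of the input names HA ChIP as its molecule, its title and description both say input, and it was used as such. In all, 438960 ST18 reads and 160443 input reads were counted in the windows.

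Translation of most messenger RNAs begins when eIF4E binds the cap, eIF4G and the helicase eIF4A join it, and a small ribosomal subunit carrying eIF1, eIF1A, eIF3, eIF5 and the eIF2-bound initiator tRNA scans for a start codon. eIF2B recharges eIF2 with GTP, and kinases that phosphorylate eIF2 under stress block that step. During elongation, eEF1A delivers aminoacyl tRNAs, the other eEF1 subunits recharge it, and eEF2 moves the ribosome along. In the developing cortex, control of translation is a known layer of regulation of neural progenitors and their neurons. The symbols Eif2c1 to Eif2c4 are an older naming of the Argonaute genes, which act in microRNA silencing and belong to no initiation complex, but they meet the rule and were kept as a group of their own.

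The sequences of 5 genes show how unlike these promoters are. They are RefSeq sequences of build GRCm38.p6, the 250 bases before the annotated start, 5′ to 3′, with every CG dinucleotide in capitals. Eif2c1 and Eif4a3 were chosen for their high ST18 to input ratios, Eif4e for a low one, and Eef1a1 and Eef1a2 as a pair of genes for the same elongation factor with unlike promoters. Eef1d, with a higher ratio than Eif4a3, and Eif3e, with a lower one than Eif4e, had no matched RefSeq promoter. For Eif2c1, with more than 1 start in RefSeq, the first listed is shown.
Eif2c1 (Ago1), chr4:126468632-126468881, minus strand: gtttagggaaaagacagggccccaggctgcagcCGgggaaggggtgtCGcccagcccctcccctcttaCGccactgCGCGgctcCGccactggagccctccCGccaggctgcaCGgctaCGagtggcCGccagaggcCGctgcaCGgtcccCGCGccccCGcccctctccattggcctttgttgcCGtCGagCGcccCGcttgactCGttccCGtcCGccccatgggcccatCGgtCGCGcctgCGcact
Eif4a3, chr11:119300044-119300293, minus strand: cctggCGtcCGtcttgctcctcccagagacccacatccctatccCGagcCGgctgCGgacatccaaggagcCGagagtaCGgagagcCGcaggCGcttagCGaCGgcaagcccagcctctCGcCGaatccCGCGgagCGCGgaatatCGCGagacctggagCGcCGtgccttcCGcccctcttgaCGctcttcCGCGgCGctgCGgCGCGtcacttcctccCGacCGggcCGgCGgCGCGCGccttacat
Eif4e, first listed start, chr3:138525941-138526190, plus strand: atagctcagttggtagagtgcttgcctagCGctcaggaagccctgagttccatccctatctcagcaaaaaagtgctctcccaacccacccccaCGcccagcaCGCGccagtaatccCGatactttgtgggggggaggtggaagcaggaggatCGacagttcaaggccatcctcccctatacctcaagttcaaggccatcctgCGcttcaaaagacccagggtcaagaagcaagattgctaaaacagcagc
Eif4e, second listed start, chr3:138527018-138527267, plus strand: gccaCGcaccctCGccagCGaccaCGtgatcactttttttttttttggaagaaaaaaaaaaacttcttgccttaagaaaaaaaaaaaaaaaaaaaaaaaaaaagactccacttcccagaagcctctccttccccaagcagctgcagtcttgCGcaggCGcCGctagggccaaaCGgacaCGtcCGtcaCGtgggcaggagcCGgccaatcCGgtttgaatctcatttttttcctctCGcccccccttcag
Eef1a1, chr9:78481725-78481974, minus strand: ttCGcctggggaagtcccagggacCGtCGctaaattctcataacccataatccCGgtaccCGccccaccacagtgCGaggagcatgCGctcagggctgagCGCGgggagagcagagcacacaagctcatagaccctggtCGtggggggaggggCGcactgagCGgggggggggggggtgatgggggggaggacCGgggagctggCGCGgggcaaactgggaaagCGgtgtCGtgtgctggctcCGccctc
Eef1a2, chr2:181157016-181157265, minus strand: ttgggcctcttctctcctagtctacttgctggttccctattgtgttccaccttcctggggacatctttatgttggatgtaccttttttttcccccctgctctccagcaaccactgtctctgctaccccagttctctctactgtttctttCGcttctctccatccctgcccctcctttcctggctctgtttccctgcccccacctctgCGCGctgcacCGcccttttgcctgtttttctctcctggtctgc
The stretches before Eif4a3 and Eif2c1 hold 36 and 26 CG dinucleotides, that before Eef1a1 18, those before the starts of Eif4e 7 and 14, and that before Eef1a2 4. Both Eif4e stretches hold 1 match each to AAGTT or its reverse complement, the core of the sequence bound by the MYT1 family, and the other 4 stretches hold none. The longer form AAAGTTT is in none of the 6. Because Eif2c1, Eif4a3 and Eif4e were picked by their ratios, these counts cannot show whether CG content or the motif goes with the ratio.

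Across the 66 windows the ST18 to input ratio was close to that of promoters in general. The members held 1534 ST18 reads against 497 input reads, which was 1.13-fold the ratio of all other promoters (exact 95% binomial interval 1.02 to 1.25, counting error only). With windows of 5 or fewer input reads left out, among the other promoters too, the interval included 1 (1.07-fold, 0.954 to 1.20). It also included 1 without the members that are no factor subunit (1.07-fold, 0.961 to 1.20) and without the 4 Argonaute symbols alone (1.09-fold, 0.981 to 1.21). The median log2 enrichment, as deposited by the authors, was 0.14 over the members (interquartile range −0.03 to 0.26) and 0.04 over all promoters (−0.10 to 0.19). On that scale 0 is a raw ratio of 2.47 ST18 reads per input read, and the totals of all promoters give 2.74. Of the 66 windows, 41 lay above the median of all promoters, as did 49.6% of all promoters. The median ST18 count per window was 23.5 over the members and 20 over all promoters, and the median input count was 7 in both.

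Few members stood far from the rest. A log2 enrichment of at least 0.58, which is 1.5-fold on the deposited scale, was reached by 2 of the 66 windows, Eif2c1 and Eef1d, and by 1.15% of all promoters. None lay at −0.58 or below, where 0.219% of all promoters lay. At 0.4 or above the count was 7 of 66, against 5.88% of all promoters, and at −0.4 or below it was 2, against 2.35%. In an exact binomial comparison of the 2 columns with Benjamini-Hochberg adjustment over all windows, which calls 0.0457% of promoters, no member was called. By the exact 95% interval of the fold over all promoters, 3 members lay above 1 (Eif2c1, Eef1d and Eif4a3), against 2.37% of all promoters, and 2 lay below 1 (Eif4e and Eif3e), against 3.24%. Those shares come to between 1 and 3 windows among 66 in each direction, so the counts are near the background. The intervals of the other 61 members included 1. At the members' depth they are wide: with 32 reads in both columns together, the interval leaves out 1 only from a fold of 3.53 upwards or 0.414 downwards.

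**Figure D1:**
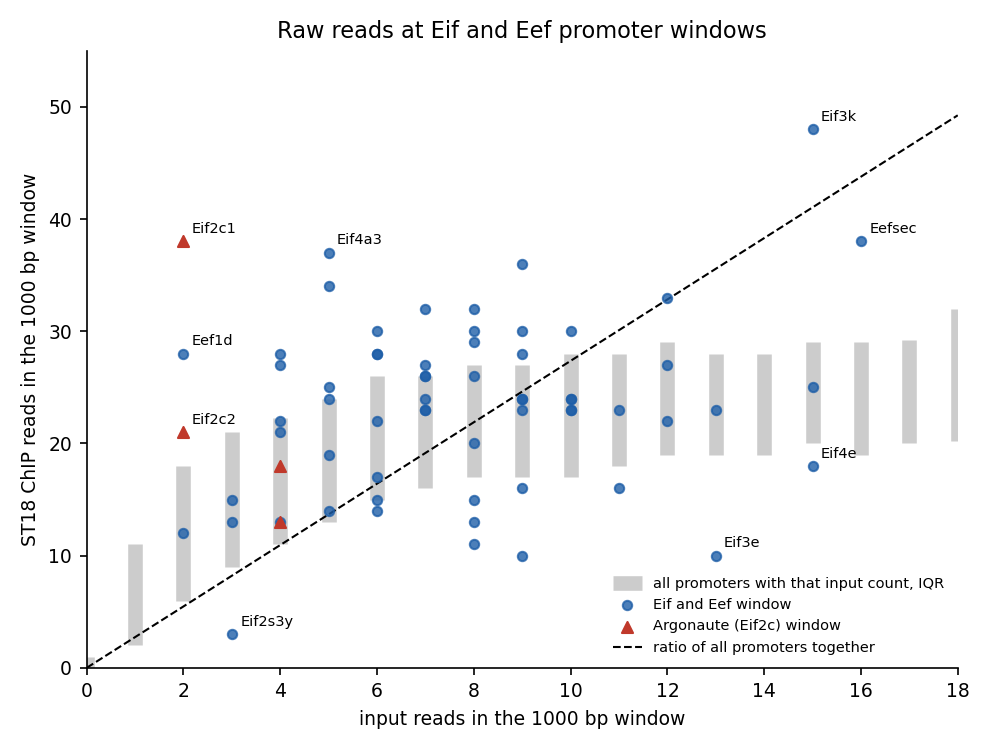
Reads at the 66 Eif and Eef windows: input reads on the x axis, ST18 ChIP reads on the y axis, 1 point per window, with Argonaute windows as triangles. Grey bars give the interquartile range of ST18 reads over all promoters with that input count, and the dashed line is the ratio of all promoters together; Eif2c1 (38 against 2 reads) lies far above its bar and Eif3e (10 against 13) below its own.

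How far a window stood from 0 depended much on its input count, as the plot of raw reads shows. Over all promoters the median ST18 count was 11 reads at 2 input reads, 18 at 5 and 21 at 7, but 24 at each input count from 12 to 16. A window with few input reads therefore tends to have a high ratio and one with many a low ratio. All 3 members with an interval above 1 had 5 or fewer input reads, as did 20 of the 66, and both members with an interval below 1 had 13 or 15. Set against promoters with their own input count, 46 members had more ST18 reads than the median of those promoters, 19 had fewer and 1 had as many. Above the upper quartile of those promoters lay 23 members, and below the lower quartile 10. Shares of all promoters by the same measures, where ties matter, were not computed. Without that background, these counts cannot show an excess among the members.

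**Figure D2:**
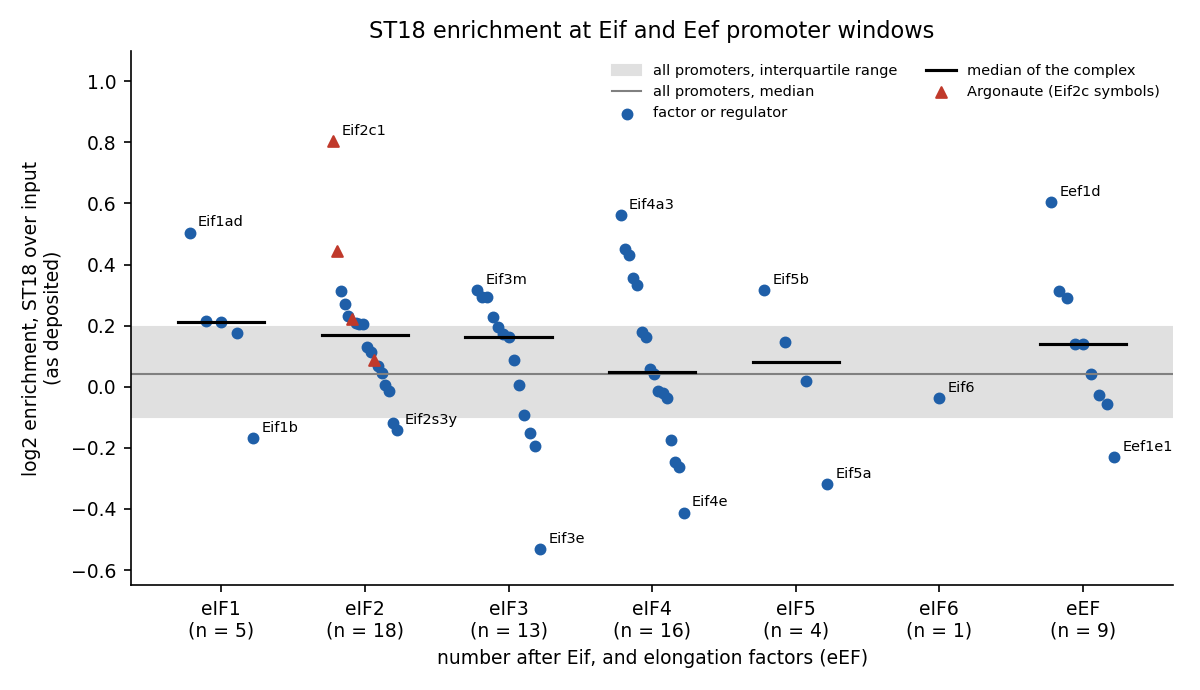
Deposited log2 enrichment of ST18 over input (y axis) at each of the 66 windows, by the number after Eif and for the elongation factors (x axis). Black bars are medians of a complex, the grey line and band are the median and interquartile range of all promoters, and triangles are the Argonaute symbols; medians run from −0.04 for the single eIF6 window to 0.21 for eIF1.

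The first factors to bind the small subunit are eIF1, which guards start codon choice, and eIF1A. The 5 windows with the number 1 held 102 ST18 reads against 27 input reads, 1.38-fold over other promoters (0.896 to 2.20), with a median log2 enrichment of 0.21. Eif1ad, which encodes a protein with an eIF1A-like domain, was highest at 0.50, with 34 ST18 reads against 5 input reads (2.49-fold over all promoters, 0.967 to 8.14). Its annotated start lies 63 bp from that of Banf1 on the opposite strand, and the Banf1 window held 37 ST18 reads against 6 input reads (log2 0.49), so the 2 windows may share reads. Eif1 held 15 ST18 reads against 3 input reads (0.22), Eif1ax 12 against 2 (0.21) and Eif1a 19 against 5 (0.17). Eif1b, a close relative of Eif1, was lowest at −0.17, with 22 ST18 reads against 12 input reads. The complex rests on few input reads: without windows of 5 or fewer input reads only Eif1b remained. Eif1b stood at 0.745-fold over the other promoters filtered in the same way, and at 0.670-fold over all promoters. Without Eif1ad, which has the most reads of the 5 and was kept as a factor subunit, the sum was 1.13-fold (0.690 to 1.92).

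The 18 windows with the number 2 held 423 ST18 reads against 119 input reads, 1.30-fold over other promoters (1.06 to 1.61). With 14 of 18 above the median of all promoters, it was the only number whose summed interval lay above 1. That rested on the Argonautes. The 4 Argonaute windows together held 90 ST18 reads against 12 input reads, 2.74-fold (1.49 to 5.50), and the 14 others 333 against 107, 1.14-fold (0.912 to 1.43).

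Eif2c1 (Ago1) was the highest of all 66 members. Its window held 38 ST18 reads against 2 input reads, which is 6.94-fold the ratio of all promoters and 0.80 on the log2 scale (1.79 to 59.4), at rank 28 of 21881. Both columns contributed: 2.58% of all promoters had at least as many ST18 reads, and 9.42% had 2 or fewer input reads. Of the 779 promoters with 2 input reads, 4 held 38 or more ST18 reads, Eif2c1 among them. Eif2c2 (Ago2), the slicing Argonaute, held 21 ST18 reads against 2 input reads (0.45; 3.84-fold, 0.938 to 33.8), and its ST18 count was near the median of all promoters. Eif2c3 held 18 ST18 reads against 4 input reads (0.22) and Eif2c4 13 against 4 (0.09). Eif2c1, Eif2c3 and Eif2c4 are next to each other on chromosome 4, with no other start within 1000 bp of theirs in RefSeq. Without Eif2c1 the remaining 3 windows gave 1.90-fold (0.956 to 4.19).

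The subunits of eIF2 itself, which carries the initiator tRNA, were close to other promoters. Eif2s1, the subunit that stress kinases phosphorylate, held 30 ST18 reads against 8 input reads (log2 0.23) and Eif2s2 29 against 8 (0.21). The gamma subunit is encoded on both sex chromosomes: X-linked Eif2s3x held 15 ST18 reads against 8 input reads (−0.12), and Y-linked Eif2s3y 3 against 3 (−0.14), the fewest reads of any member. Summed over the 4 windows the ratio was 1.04-fold (0.665 to 1.68).

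The 5 genes of eIF2B, the exchange factor of eIF2, gave 1.22-fold (0.859 to 1.75), with 4 of 5 above the median of all promoters. Eif2b5, its catalytic subunit, was highest, with 28 ST18 reads against 6 input reads (0.31), and Eif2b1 lowest, with 24 against 10 (−0.01). Eif2b2 stood at 0.27, Eif2b3 at 0.21 and Eif2b4 at 0.07. The starts of Eif2b1 and Gtf2h3 lie 17 bp apart, and those of Eif2b4 and Snx17 165 bp apart, on opposite strands. The Gtf2h3 window stood at 0.11 (19 ST18 against 6 input reads) and that of Snx17 at −0.14 (32 against 16).

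The eIF2 kinases answer different stresses. Eif2ak4 (GCN2), which senses lack of amino acids, held 26 ST18 reads against 7 input reads (log2 0.21), and Eif2ak1 (HRI), the heme-regulated kinase, 28 against 9 (0.13). Eif2ak3 (PERK), which responds to misfolded protein in the endoplasmic reticulum, held 14 ST18 reads against 5 input reads (0.05), and Eif2ak2 (PKR), which binds double-stranded RNA, 15 against 6 (0.01). All 4 intervals included 1, and the summed ratio was 1.12-fold (0.720 to 1.80). Eif2a, a separate initiation factor despite its name, stood at 0.12 with 30 ST18 reads against 10 input reads.

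eIF3 is the scaffold of initiation on the small subunit and the complex with the most subunits. Its 13 windows held 293 ST18 reads against 106 input reads, 1.01-fold over other promoters (0.806 to 1.27), with 8 of 13 above the median of all promoters. Eif3e was the lowest of all 66 members: 10 ST18 reads against 13 input reads, which is 0.281-fold the ratio of all promoters and −0.53 on the log2 scale (0.110 to 0.694). Of the 631 promoters with 13 input reads, 12 held 10 or fewer ST18 reads. The other 12 windows gave 1.11-fold (0.877 to 1.42). Eif3m was highest at 0.32, with 25 ST18 reads against 5 input reads, followed by Eif3g and Eif3i at 0.29 each. The core subunits Eif3a and Eif3b stood at 0.17 (30 against 9) and 0.23 (27 against 7). Eif3f (13 against 3), Eif3l (20 against 8) and Eif3d (23 against 11) stood at 0.16, 0.01 and −0.09. Eif3c and Eif3h were low, at −0.15 (16 against 9) and −0.20 (23 against 13). Eif3k had the most reads of any member, 48 ST18 reads against 15 input reads, and with both columns high its log2 enrichment was 0.19. Its start lies 162 bp from that of Map4k1, whose window held 38 ST18 reads against 14 input reads (0.07). The symbol Eif3j stands for a gene that RefSeq lists as the pair Eif3j1 and Eif3j2, and its window (13 against 4) may share reads between them.

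The 16 windows of the cap-binding group eIF4 had an SD of 0.28 on the log2 scale across windows. It was 0.27 for eIF5, 0.25 for eIF3 and for eEF, 0.24 for eIF1, 0.22 for eIF2 and 0.23 for all promoters. The sum over the eIF4 windows was 374 ST18 reads against 129 input reads, 1.06-fold (0.865 to 1.30), with 8 of 16 above the median of all promoters. Among the helicases, Eif4a3, the member that serves in the exon junction complex, held 37 ST18 reads against 5 input reads, which is 2.70-fold the ratio of all promoters and 0.56 on the log2 scale (1.06 to 8.82). Of the 2066 promoters with 5 input reads, 37 held 37 or more ST18 reads. The helicases of initiation were at the level of promoters in general, with 23 ST18 reads against 10 input reads at Eif4a1 (−0.04) and 24 against 9 at Eif4a2 (0.04). Eif4b and Eif4h, which stimulate the helicase, stood at −0.17 and 0.06.

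The cap-binding proteins lay on both sides. Eif4e, the main one, held 18 ST18 reads against 15 input reads, which is 0.439-fold the ratio of all promoters and −0.41 on the log2 scale (0.209 to 0.935). Its ST18 count was at or above that of 20.2% of the 267 promoters with 15 input reads. Eif4e1b, an oocyte form, held 25 ST18 reads against 15 input reads (−0.25). Eif4e2 (4EHP), which binds the cap without recruiting eIF4G and acts in repression, held 27 ST18 reads against 4 input reads (0.43; 2.47-fold, 0.860 to 9.70), and Eif4e3 24 against 7 (0.16). The ST18 counts of these 4 windows ran from 18 to 27 and the input counts from 4 to 15, so the input counts varied more.

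At the scaffold genes both counts varied, with ST18 counts from 16 to 28 and input counts from 4 to 11. Eif4g2, an initiation scaffold without the cap-binding protein's docking site, held 28 ST18 reads against 4 input reads (log2 0.45), Eif4g3 24 against 10 (−0.01) and Eif4g1, the main scaffold, 16 against 11 (−0.26). The proteins that hold eIF4E inactive were Eif4ebp1 at 0.36 (30 against 6), Eif4ebp3 at 0.18 (22 against 6) and Eif4ebp2 at −0.02 (14 against 6). With the same 6 input reads in each, these differ in ST18 reads alone. Eif4enif1, which carries eIF4E into the nucleus, stood at 0.33 with 32 ST18 reads against 7 input reads. Summed, eIF4E genes gave 0.838-fold (0.575 to 1.24), eIF4G genes 0.994-fold (0.620 to 1.64), 4E-binding protein genes 1.34-fold (0.786 to 2.40) and eIF4A genes 1.28-fold (0.805 to 2.11).

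The factors that act at subunit joining and after it were near other promoters. The 4 windows with the number 5 gave 0.987-fold (0.642 to 1.55). Eif5b, the GTPase of subunit joining, was highest at 0.32 (22 ST18 against 4 input reads), and Eif5, the partner that triggers GTP hydrolysis on eIF2, stood at 0.15 (26 against 8). Eif5a, the hypusine-bearing factor that relieves stalled ribosomes, was lowest at −0.32 with 10 ST18 reads against 9 input reads (0.406-fold, 0.148 to 1.13), while its relative Eif5a2 held 23 against 9 (0.02). Both had 9 input reads, and the Eif5a window had fewer ST18 reads than most: 4.83% of the 2155 promoters with that input count held 10 or fewer. Eif6, which keeps the large subunit apart from the small one, held 23 ST18 reads against 10 input reads (−0.04; 0.841-fold, 0.385 to 1.98).

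The 9 elongation factor windows held 238 ST18 reads against 76 input reads, 1.14-fold over other promoters (0.881 to 1.502), with 5 of 9 above the median of all promoters. Eef1d, a subunit of the factor that recharges eEF1A, was second of all members: 28 ST18 reads against 2 input reads, which is 5.12-fold the ratio of all promoters and 0.60 on the log2 scale (1.29 to 44.3). Of all promoters, 19.4% had at least as many ST18 reads and 9.42% had 2 or fewer input reads, and of the 779 promoters with 2 input reads 37 (4.75%) held 28 or more ST18 reads. Eef1b2, another exchange subunit, held 36 ST18 reads against 9 input reads (0.29), and Eef1g 27 against 12 (−0.06). Eef1a1, the form of eEF1A in most tissues, held 28 ST18 reads against 6 input reads (0.31), and Eef1a2, the form of neurons and muscle, 23 against 7 (0.14). The intervals of these 2 were wide and overlapped (0.693 to 5.04 for Eef1a1 and 0.499 to 3.31 for Eef1a2). At this depth they cannot show whether the 2 windows differ. Together the 5 eEF1 subunit genes gave 1.44-fold (0.994 to 2.14), and 1.23-fold (0.829 to 1.85) without Eef1d.

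The translocase gene Eef2 held 24 ST18 reads against 9 input reads (log2 0.04), the value of the median promoter. Eef2k, the kinase that inactivates eEF2, held 23 ST18 reads against 7 input reads (0.14), and Eefsec, which delivers selenocysteine, 38 against 16 (−0.03). Eef1e1, a protein of the tRNA synthetase complex, was the lowest Eef window at −0.23, with 11 ST18 reads against 8 input reads.

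**Figure D3:**
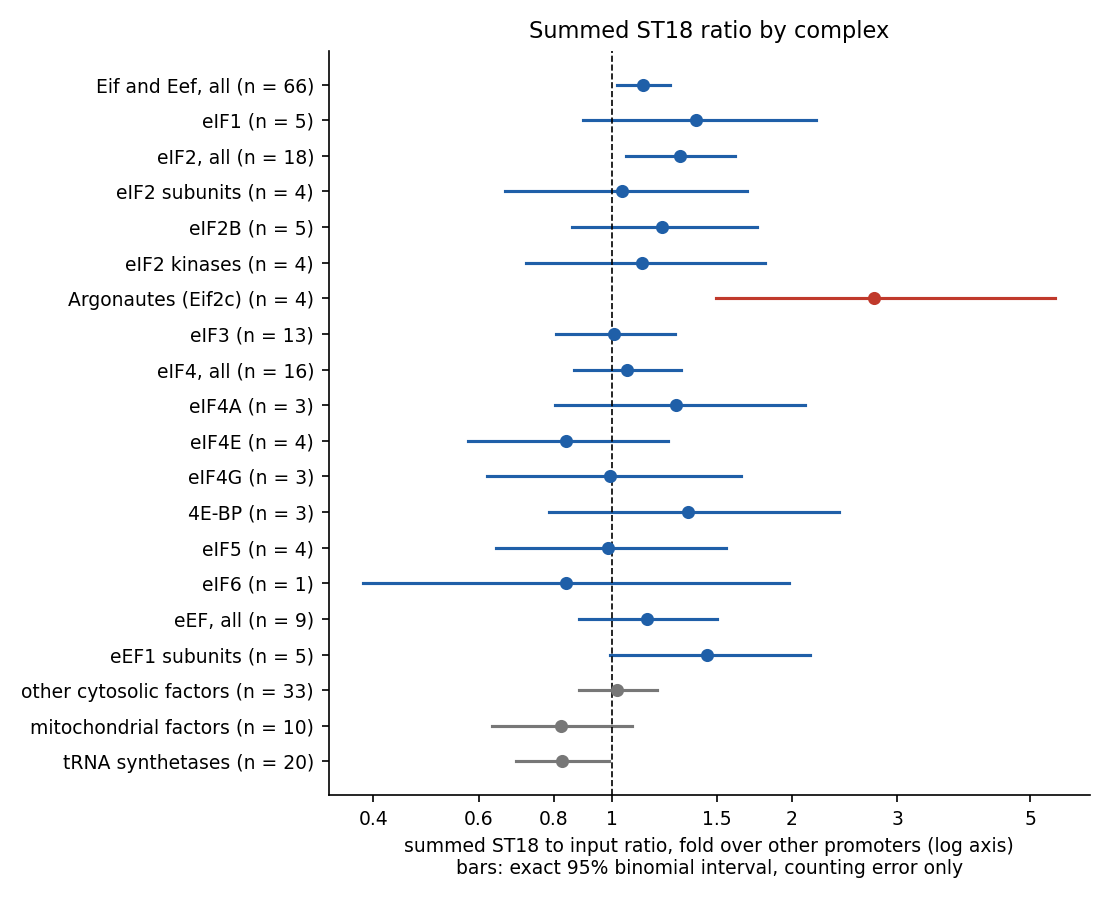
Summed ST18 to input ratio of each complex and of related gene lists, as a fold over other promoters on a log axis; bars are exact 95% binomial intervals for counting error only. The Argonaute symbols lie highest at 2.74-fold (1.49 to 5.50), and apart from eIF2 and all members together, which hold them, every Eif and Eef interval reaches 1.

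Other genes of translation, which do not carry these symbols, gave summed ratios from 0.823-fold to 1.02-fold. A list of 33 cytosolic factors and regulators gave 1.02-fold over other promoters (0.881 to 1.19) with a median log2 enrichment of 0.08. None of its windows reached 0.58, and 1 lay at −0.58 or below. The lowest was Paip1, a partner of the poly(A)-binding protein, at −0.72 with 4 ST18 reads against 13 input reads (0.112-fold, 0.0267 to 0.364), and the highest was Tpt1 at 0.48 (33 against 5). The 10 mitochondrial translation factors gave 0.823-fold (0.633 to 1.08), from Mtif2 at −0.24 (19 against 12) to Tsfm at 0.08 (23 against 8), and none passed 0.58 in either direction.

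The 20 cytosolic aminoacyl tRNA synthetases, which charge tRNAs with amino acids, held 412 ST18 reads against 182 input reads, 0.827-fold over other promoters (0.693 to 0.990), with 6 of 20 above the median of all promoters. Their highest window, Vars, held 21 ST18 reads and 0 input reads. Its log2 enrichment was 0.62, and the exact 95% interval of its fold over all promoters had a lower limit of 1.90 and no upper limit. The lowest were Qars at −0.50 (11 against 13) and Cars at −0.46 (7 against 10). None was at −0.58 or below, but 4 of 20 had an interval below 1, against 3.24% of all promoters. Without Vars the other 19 gave 0.785-fold (0.657 to 0.941).

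**Figure D4:**
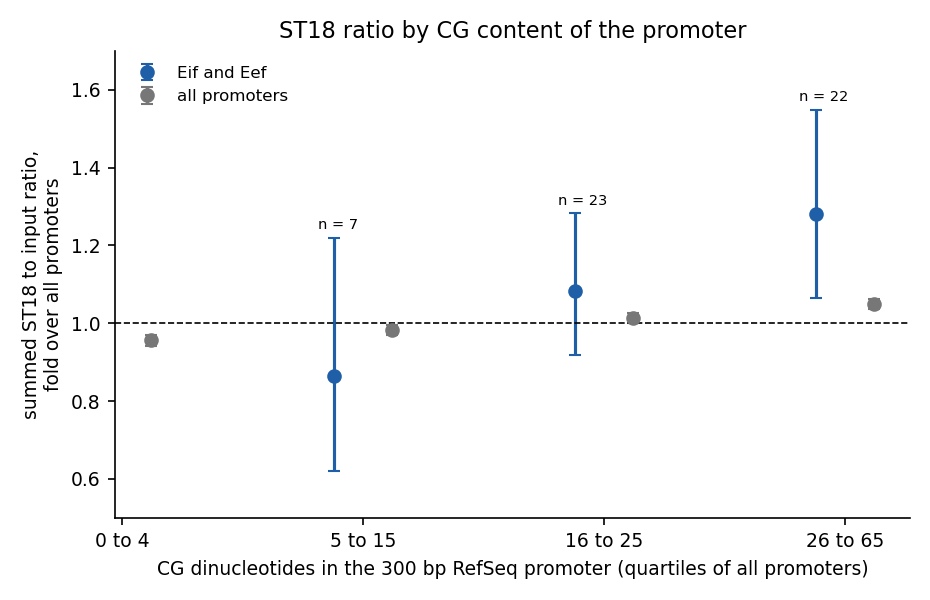
Summed ST18 to input ratio as a fold over all promoters (y axis) by the number of CG dinucleotides in the 300 bp RefSeq promoter, in quartiles of all promoters (x axis), with exact 95% binomial intervals for counting error only. For Eif and Eef genes the values are 0.865, 1.08 and 1.28 in the upper 3 quartiles, and for all promoters they are 0.957, 0.983, 1.01 and 1.05 from lowest to highest.

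The promoters of the members varied widely in composition, around a higher median CG count than that of all promoters. RefSeq promoters (250 bases before and 50 after the annotated start) were matched for 52 of the 66 members and 16495 of the 21881 windows. Eef1d and Eif3e, the second highest and the lowest member, were not among those matched. The members had a median of 24 CG dinucleotides per 300 bases (range 8 to 54) and a median GC content of 62.5%, against 15 and 57.0% over all promoters. No matched member was in the lowest quartile of all promoters by CG count, 7 were in the next, 23 in the third and 22 in the highest. Over all promoters the ratio of summed ST18 to summed input reads went with CG count, at 0.957-fold (0.943 to 0.971) in the lowest quartile, 0.983-fold in the next, 1.01-fold in the third and 1.05-fold (1.04 to 1.06) in the highest. The members gave 0.865-fold (0.620 to 1.22), 1.08-fold (0.918 to 1.28) and 1.28-fold (1.06 to 1.55) in the upper 3 quartiles. In the highest quartile they stood at 1.22-fold (1.02 to 1.48) against the other promoters of that quartile. That quartile holds all 3 matched Argonautes. Without these its 19 members gave 1.19-fold over all promoters (0.980 to 1.45), against 1.28-fold with them. The ratio of these 19 to the other promoters of the quartile was not computed. The part of promoter composition in the members' ratio was not tested.

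The sequence bound by the MYT1 family was no more common among the members. AAAGTTT or its reverse complement was in the promoters of 2 of the 52 matched members, Eif2s3x and Eif3g (3.85%), against 4.31% of all matched promoters. The shorter AAGTT, which AAAGTTT contains, was in 17 of 52 (32.7%), against 36.9% of all. Members with AAGTT summed to 1.06-fold the ratio of all promoters (0.873 to 1.29) and members without it 1.17-fold (1.01 to 1.35). Over all matched promoters the values were 0.975-fold (0.965 to 0.986) with it and 1.02-fold (1.01 to 1.03) without, so the direction was not particular to the members. A pyrimidine tract at the annotated start, as in the terminal oligopyrimidine (TOP) messenger RNAs whose translation follows nutrient signals, was found exactly at that base in 2 of 52 members (3.85%), Eif2s3x and Eif3f, against 2.27% of all. A match or its absence describes these letters in these 300 bases only, since the position of the counted windows is not given.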

How the data were processed

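Build mm9 and the tools Bowtie, edgeR, HTSeq 0.5.4p1, MACS2 2.0.10.20120913 and TopHat2 2.0.8 stand in the submitters' processing notes, with no role for each. The promoter table deposited by the authors gives whole-number read counts and a log2 enrichment. Recomputation gave the deposited log2 value in all 21881 windows within 1e-06 when ST18 counts were multiplied by 0.406 and 16 was added to both counts before the log2 ratio was taken. That pseudocount draws low counts towards 0. Duplicate removal is not given in the sources used here.

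Members were rows whose symbol starts with Eif or Eef. The members, the complexes and the lists of other translation genes were chosen with earlier results of these data known, so their values are a description. From 1 test, a two-sided exact binomial comparison of every window with the overall ratio (Benjamini-Hochberg adjustment over the whole table), only the count of calls is given. It compares the reads of the 2 columns, not conditions. Folds are ratios of ST18 to input reads over that of all promoters (a single window) or of all other promoters (a sum), with exact Clopper-Pearson 95% intervals. Intervals cover counting error only, because the table has 1 ST18 column and 1 input column and no replicate. Reads that carry no molecular identifiers may also be copies of 1 molecule, which the intervals do not take into account. Named are the highest and lowest window of each complex, windows past 0.58 or with an interval that leaves out 1, and the defining subunits; others were added after their values were seen. RefSeq promoters (GRCm38.p6) were matched by symbol or listed synonym, with the first listed start. The deposited peak list carries mm9 positions without genes and was not used. Python 3.11.15, NumPy 2.4.6, SciPy 1.17.1 and pandas 2.3.3 were used, and the interval code was tested on simulated data.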

Additional observations from a re-analysis of the deposited data

How the results depend on the processing

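Of 89 values under alternatives, 68 stayed within the limits set for them and 21 moved. A summed ratio counted as unmoved while it lay inside its main interval, also where its own interval came to include 1. Some settings could not change a value, such as leaving out the Argonautes for a complex that holds none. The tally is therefore no measure of robustness. The 2 members at a log2 enrichment of at least 0.58 became 21 with a pseudocount of 1 (24.1% of all promoters) and 7 with a pseudocount of 8 (6.98%). Scaled to the promoter totals the count was 1 (0.608%), at a log2 of 1 it was 0 (0.0548%), and at 0.4 it was 7 (5.88%). Without windows of 5 or fewer input reads it was 0, against 0.332% of all promoters filtered in the same way. It was 1 without members that are no factor subunit and 1 without the Argonaute symbols, against 1.15% of all promoters. By an exact binomial test with Benjamini-Hochberg adjustment over all windows, which calls 0.0457% of all promoters, it was 0. The 0 members at −0.58 or below became 6 with a pseudocount of 1 (13.1% of all promoters), 2 with a pseudocount of 8 (2.6%) and 2 at −0.4 (2.35%). The 3 members with an interval above 1 became 0 when windows of 5 or fewer input reads were left out, 1 with a 99% interval, and the 2 below 1 became 1 with that interval. For these interval counts the shares of all promoters under the changed settings were not computed. The summed eIF1 ratio became 0.745-fold when windows of 5 or fewer input reads were left out, among the other promoters too. The median of 0.14 became 0.36 with a pseudocount of 1 and 0.21 with a pseudocount of 8. Of the 63 other translation windows, the 1 at 0.58 or above became 3 at 0.4 (5.88% of all promoters) and the 1 at −0.58 or below became 6 at −0.4 (2.35%). The share of matched members with AAAGTTT, 3.85%, became 32.7% for AAGTT. The changes with threshold, filter, interval level and motif length follow from how these were built. Leaving out the Argonautes and matching on CG quartile were chosen after seeing the data. No symbol is marked as a pseudogene, so that setting changed nothing. No paired analysis was possible because the table has 1 ST18 column, with no replicate number, for the 2 ChIP samples, and fits without each replicate were not run for the same reason. At 32 reads in both columns together, the interval of a window left out 1 only from an observed 3.53-fold upwards or 0.414-fold downwards.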
